A study of Mus musculus and Mus musculus musculus x Mus musculus castaneus with 8 samples.

Results

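Open chromatin was examined at 3 loci, those of Actb, Actg1 and Gapdh, in mouse somatic cells and in mouse nuclei transplanted into frog oocytes. The members are the called ATAC-seq peaks that overlap a window of 105 kb around each gene, in build mm9: chr5:143615000-143720000 for Actb, chr11:120155000-120260000 for Actg1 and chr6:125060000-125165000 for Gapdh. The windows held 70 of the 151729 peaks in the 5 lists, 1 list per condition. The rule takes every peak in a window by position and uses no count or width.

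The lists stand for 8 libraries. C2C12 is a mouse myoblast line (strain label C3h), and it was assayed from 50000 cells (2 libraries) and from 1000 cells (2 libraries). Mouse embryonic fibroblasts (MEFs), permeabilized and derived from embryos of a cross with Mus musculus castaneus, were assayed as donor cells (1 library of 3000 cells). The same kind of MEFs was assayed 48 h after nuclear transfer (NT) into Xenopus laevis oocytes (2 libraries) and, at the same time after transfer, from oocytes made to overexpress Toca1 (1 library), with 3000 cells in each. Each of the 2 NT libraries pools several oocytes of a separate transfer experiment.

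Actb and Actg1 encode the cytoplasmic beta and gamma actins, which build the actin filaments of nearly every cell and are also found in the nucleus. Toca1/Fnbp1l promotes the assembly of actin filaments. Gapdh encodes a glycolytic enzyme, and with Actb it is widely used as a reference gene because most cells transcribe it. Promoters of constantly active genes are generally depleted of nucleosomes, which ATAC-seq reads as open chromatin because the transposase inserts its adaptors where DNA is exposed. In oocytes, transplanted nuclei are exposed to the transcription factors of the oocyte and do not divide.

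The sequence before a start of the gene is shown for 2 of the genes, Actg1 and Gapdh, and was searched for the recognition elements named below. RefSeq gives 250 bases before the start of Actg1 (GRCm38.p6, minus strand, chr11:120348496-120348745) and of Gapdh (GRCm38.p6, minus strand, chr6:125165774-125166023), and Actb has no entry in the table used. Capitals mark matches, on either strand, to CCAAT, to TATAAA, to the GC box GGGCGG, to the E box CACGTG and to the CArG box, which serum response factor, a known regulator of actin genes, binds.
Actg1: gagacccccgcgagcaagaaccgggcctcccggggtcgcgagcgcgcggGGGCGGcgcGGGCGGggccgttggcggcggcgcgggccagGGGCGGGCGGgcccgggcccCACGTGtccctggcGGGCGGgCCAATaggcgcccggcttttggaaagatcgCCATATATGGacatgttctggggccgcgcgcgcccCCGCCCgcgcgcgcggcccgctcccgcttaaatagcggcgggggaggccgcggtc
Gapdh: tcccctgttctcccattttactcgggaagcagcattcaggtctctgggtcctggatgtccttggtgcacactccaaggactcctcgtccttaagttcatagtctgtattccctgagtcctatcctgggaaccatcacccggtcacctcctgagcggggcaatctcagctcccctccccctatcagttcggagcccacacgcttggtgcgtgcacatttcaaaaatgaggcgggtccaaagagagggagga

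The Actg1 sequence held 1 CArG box, whose first base lies at -90 from the start, 1 CCAAT at -120, 1 CACGTG at -141 and 6 GC boxes, of which some overlap each other. The Gapdh sequence held no match to any of the 5 motifs. A single start is shown per gene, although the 32851 promoter sequences come from 27025 genes, so a gene can have several. Other starts of these genes were not looked at, so the lack of matches at Gapdh holds for the printed sequence only. Among all 32851 promoter sequences of the same length, 1.47% held a CArG box, 33.8% CCAAT, 12.4% TATAAA, 32.7% GGGCGG and 6.02% CACGTG. GC content was 79.2% for Actg1 and 55.6% for Gapdh, against a median of 52.4%, and 98.4% and 60.1% of promoters were less GC-rich. These positions are in another build than the peaks, so no peak was placed on a promoter. The central 9 kb of each window is called its central interval instead, and a peak there is called central without a claim that it lies at the gene's start.

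Each list gives only the position of a peak that passed a false discovery rate of 0.01, with no height and no read number. Each condition has a single list whatever its number of libraries, so there is no spread between replicates, and no difference between conditions could be tested. The lists held between 8257 (NT) and 52697 (C2C12, 50000 cells) peaks, with median widths of 258 bp (C2C12, 1000 cells), 291 bp (NT), 392 bp (C2C12, 50000 cells), 399 bp (donor MEFs) and 467 bp (Toca1). A peak missing from a shorter list can therefore mean less open chromatin or fewer reads, which cannot be told apart here.

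The first question was how many open sites each condition showed around these genes. Donor MEFs had 18 peaks in the 3 windows: 6 at Actb, 7 at Actg1 and 5 at Gapdh. After NT 5 peaks were called, of which 3 were at Actb, 1 at Actg1 and 1 at Gapdh. In NT oocytes with Toca1, 12 peaks were called, with 2 at Actb, 7 at Actg1 and 3 at Gapdh. C2C12 cells had 26 peaks from 50000 cells (10, 7 and 9 in the same order) and 9 from 1000 cells (7, 1 and 1). Every window thus held at least 1 peak in every list. By count the 3 loci did not follow 1 order: Actb held 3 peaks after control NT and 2 with Toca1, while Actg1 and Gapdh held more with Toca1. The Actb difference is 1 peak, and 1 of its NT peaks was 204 bp wide and in no other list. By covered length Actb too held more with Toca1 (1289 bp) than after control NT (890 bp).

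**Figure D1:**
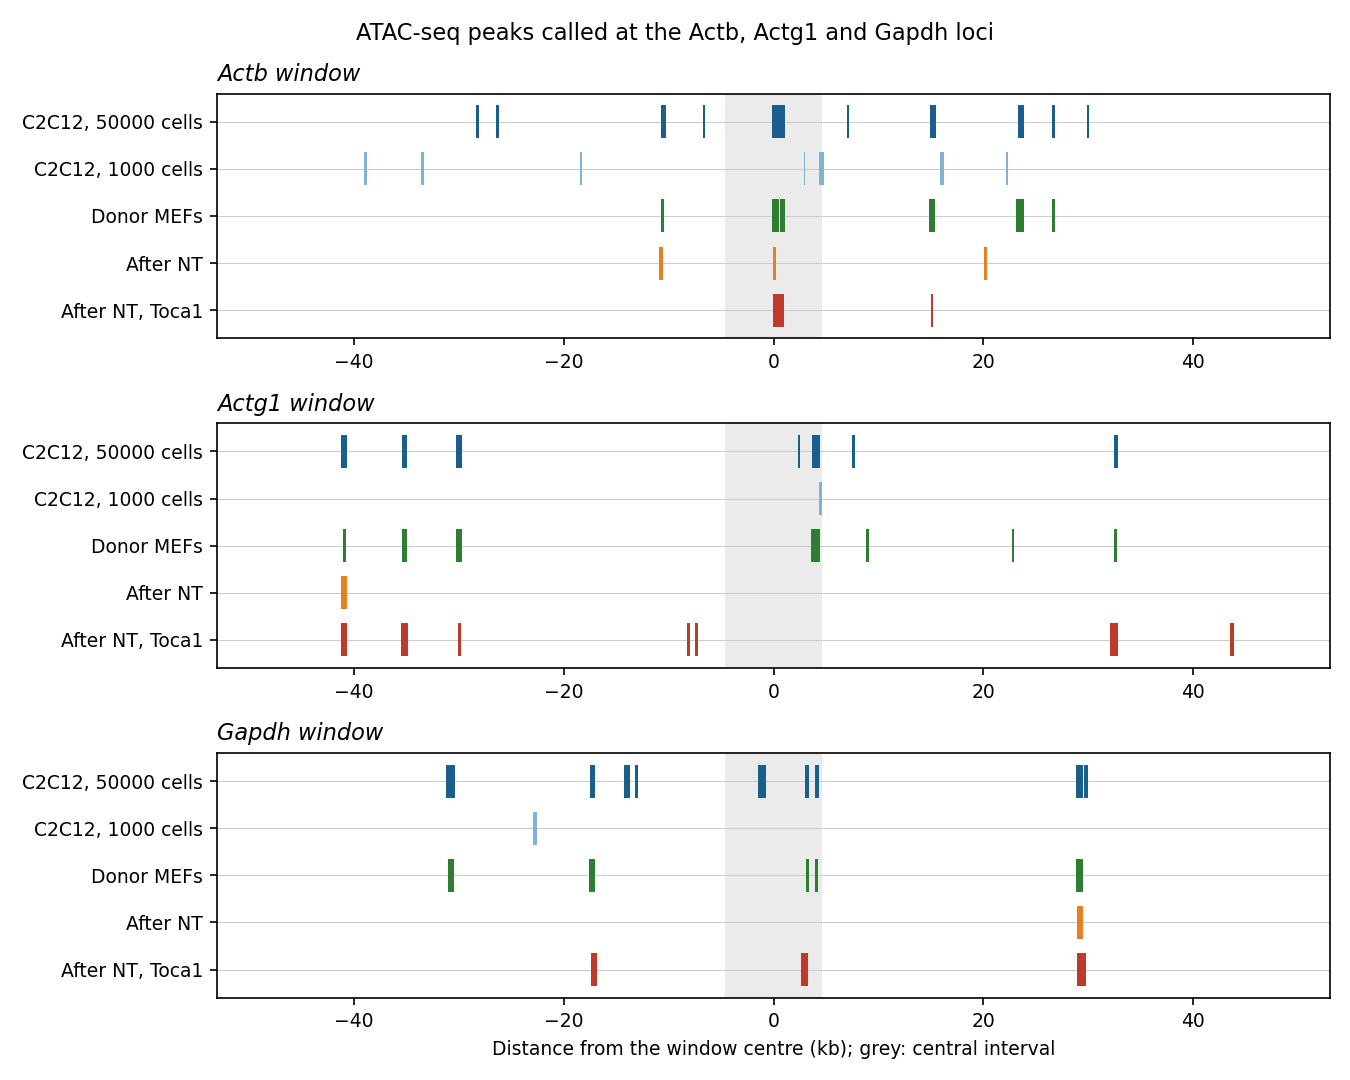
Called ATAC-seq peaks (bars, drawn to scale) in the 3 windows, by list, against the distance from the window centre in kb; the grey band is the central interval of 9 kb. After NT, the Actg1 window has 1 peak at -40.9 kb and the Gapdh window 1 peak at 29.2 kb, and in that list the Actb window alone has a peak in the central interval.

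The windows were set beside all stretches of the same length. Of 25116 adjoining stretches of 105 kb, at least 1 peak lay in 56.7% for C2C12 from 50000 cells, 65.1% for C2C12 from 1000 cells, 53.7% for donor MEFs, 23.0% after NT and 33.5% with Toca1. As many peaks as at Actb were found in 2.38% of the stretches for C2C12 from 50000 cells, 6.41% for donor MEFs, 1.96% after NT and 17.0% with Toca1. At Actg1 the shares were 8.46%, 3.65%, 23.0% and 0.259%. The 7 peaks with Toca1 were therefore a high number for that list, whereas 1 peak after NT was not. At Gapdh they were 3.64%, 10.5%, 23.0% and 8.45%. In the C2C12 list from 1000 cells, 0.390% of stretches held as many peaks as Actb and 65.1% as many as Actg1 or Gapdh, so the single peaks there were common.

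By covered length, donor peaks spanned 3037 bp at Actb, 2986 bp at Actg1 and 2354 bp at Gapdh. Peaks after NT spanned 890, 512 and 524 bp. With Toca1 they spanned 1289, 3176 and 2117 bp, so that the length at Actg1 exceeded that of the donor list. The C2C12 list from 50000 cells spanned 4353, 3292 and 4725 bp.

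Overlapping peaks of the 5 lists were joined into sites to follow each position across conditions. There were 39 sites, 18 at Actb, 12 at Actg1 and 9 at Gapdh. Of these, 24 were in 1 list only, 4 in 2 lists, 8 in 3 lists, 3 in 4 lists and 0 in all 5. Sites in 1 list made up 61.5% of these against 73.8% of the 107469 sites of the whole series, and sites in 3 or more lists 28.2% against 8.50%. Of the 24 sites in 1 list, 10 came from C2C12 cells (50000 cells), 8 from C2C12 cells (1000 cells), 2 from donor MEFs, 1 from NT and 3 from Toca1. The C2C12 part was 75.0%, near the 70.7% of the whole series. Each window held exactly 1 of the 3 sites called in C2C12 cells (50000 cells), donor MEFs, NT and NT with Toca1. Counted from the window centre towards higher coordinates, that site lay at 0.491 kb for Actb, at -41 kb for Actg1 and at 29.4 kb for Gapdh. Counted as donor peaks, 3 of the 18 in the windows were called in those 3 further lists, against 6.80% of all donor peaks.

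The site at the centre of the Actb window was the widest of the 39. C2C12 cells (50000 cells) had 1 peak of 1198 bp there (chr5:143667355-143668552), wider than 98.7% of the peaks in that list. Donor MEFs had 2 peaks, of 604 bp (chr5:143667381-143667984) and 472 bp (chr5:143668158-143668629), with 173 bp between them. After NT 1 peak of 294 bp (chr5:143667480-143667773) was called, wholly inside the first donor peak and covering 48.7% of it. It lay 384 bp from the second donor peak, which no NT peak overlapped. With Toca1 1 peak of 1038 bp (chr5:143667434-143668471) spanned the gap and reached both donor peaks.

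The lower edges of the Actb site in these 4 lists lay within 125 bp of each other, and the upper edges spread over 856 bp. The NT peak thus shared the lower end of the site and differed from the other lists at its upper end. Its width was at the middle of its own list, with 50.5% of NT peaks narrower, whereas 92.7% of the Toca1 peaks were narrower than the peak with Toca1. The C2C12 list from 1000 cells had 0 peaks at this site. It had 2 others in the central interval, of 166 bp (chr5:143670367-143670532) and 400 bp (chr5:143671858-143672257), which no other list held.

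**Figure D2:**
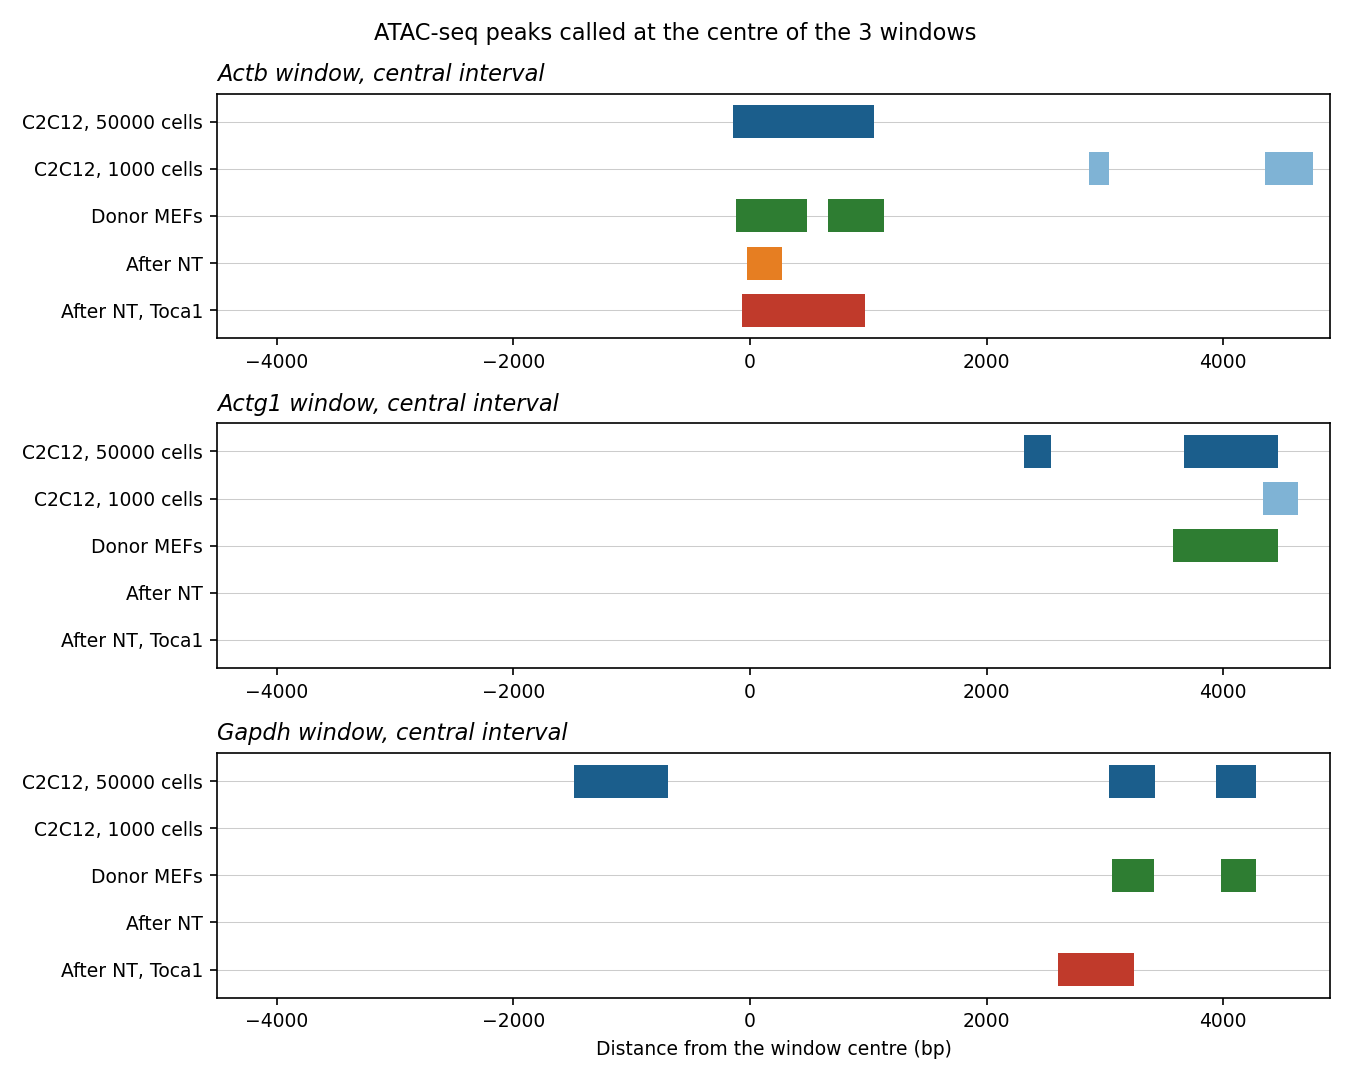
Called peaks (bars, to scale) in the central interval of each window, by list, against the distance from the window centre in bp. Only the Actb centre has a peak after NT (294 bp), the Actg1 centre has none in either NT list, and the Gapdh centre has 1 of 637 bp with Toca1.

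The Actg1 centre was open in the somatic cells and had no called peak after NT. Donor MEFs had 1 peak of 888 bp there (chr11:120211077-120211964), with its midpoint 4.02 kb above the window centre, which was the widest donor peak of all 3 windows and wider than 97.6% of the donor list. C2C12 cells (50000 cells) had 1 of 793 bp (chr11:120211170-120211962) at the same site, with its midpoint 45.5 bp from that of the donor peak, and a second of 226 bp (chr11:120209816-120210041) that only this list held. The site was also in the C2C12 list from 1000 cells, as a peak of 298 bp (chr11:120211833-120212130), the only peak of that list in the 3 windows that overlapped a peak from 50000 cells. The NT list had its nearest peak 44269 bp from the donor peak, and the Toca1 list had its nearest 10767 bp away. Of the 938 donor peaks at least as wide as this one, 29.7% were overlapped by an NT peak and 53.1% by a Toca1 peak, so absence from both lists was not rare at that width.

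The Gapdh centre differed between the NT lists. Donor MEFs had 2 peaks, of 353 bp (chr6:125115561-125115913) and 296 bp (chr6:125116481-125116776), 567 bp apart, with midpoints 3.24 and 4.13 kb above the window centre. C2C12 cells (50000 cells) had peaks of 381 bp (chr6:125115539-125115919) and 341 bp (chr6:125116440-125116780) at the same places, with midpoints shifted by -8 and -18.5 bp, and another of 797 bp (chr6:125111011-125111807) that no other list held. After NT no peak was called in the central interval, and the nearest lay 24459 bp from it. With Toca1 1 peak of 637 bp (chr6:125115107-125115743) overlapped the first donor peak over 183 bp (51.8% of it), and its midpoint lay 312 bp lower, the largest shift of the 8 one-to-one pairs between donor MEFs and Toca1. The C2C12 list from 1000 cells had no peak in this interval, the nearest being 18003 bp away. Of the 24295 donor peaks at least as wide as the one of 353 bp, 13.5% were overlapped by an NT peak and 26.1% by a Toca1 peak. For the 30737 at least as wide as the one of 296 bp, these shares were 11.6% and 22.8%. Absence from either NT list was therefore common at these widths.

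Away from the window centres, 2 sites were in 4 lists. At the lower end of the Actg1 window the widths were 557 bp in C2C12 cells (chr11:120166264-120166820), 326 bp in donor MEFs (chr11:120166448-120166773), 512 bp after NT (chr11:120166296-120166807) and 521 bp with Toca1 (chr11:120166280-120166800). Here the donor peak was the narrowest and was covered in full by both NT peaks. In the upper part of the Gapdh window the widths were 604 bp in donor MEFs (chr6:125141335-125141938), 524 bp after NT (chr6:125141460-125141983) and 916 bp with Toca1 (chr6:125141373-125142288). C2C12 cells had 2 peaks there, of 661 bp (chr6:125141312-125141972) and 418 bp (chr6:125142063-125142480), with 90 bp between them. The upper edges of this site spread over 542 bp, and the midpoint of the Toca1 peak lay 194 bp above that of the donor peak. The Toca1 peak reached both C2C12 peaks, as it reached both donor peaks at the Actb centre.

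Only 9.73% of all donor peaks were overlapped by an NT peak, and a site in 3 of the 5 lists lacks the others by definition. Absence after control NT is therefore the usual state, and the remaining sites in 3 lists were nearly all absent there. The exception was a site at -10.6 kb from the Actb centre, with 313 bp in donor MEFs (chr5:143656735-143657047), 458 bp in C2C12 cells (chr5:143656770-143657227) and 392 bp after NT (chr5:143656612-143657003), and with no Toca1 peak. It was the only donor peak of the windows found after NT and not with Toca1. A site 15.2 kb after the Actb centre had 529 bp in donor MEFs (chr5:143682345-143682873), 657 bp in C2C12 cells (chr5:143682364-143683020) and 251 bp with Toca1 (chr5:143682482-143682732).

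In the Actg1 window 3 such sites were found in donor MEFs, C2C12 cells and Toca1. The site at -35.2 kb had 450 bp in donor MEFs (chr11:120172080-120172529), 431 bp in C2C12 cells (chr11:120172120-120172550) and 617 bp with Toca1 (chr11:120172024-120172640). The site at -30 kb had 599 bp (chr11:120177240-120177838), 640 bp (chr11:120177211-120177850) and 317 bp (chr11:120177423-120177739) in the same order. The site at 32.4 kb had 304 bp (chr11:120239930-120240233), 303 bp (chr11:120239985-120240287) and 762 bp (chr11:120239535-120240296). The peak with Toca1 was thus 2.51 times as wide as the donor peak at the last site and 0.529 times as wide at the one before. In the Gapdh window the site at -17.2 kb had 561 bp in donor MEFs (chr6:125094877-125095437), 414 bp in C2C12 cells (chr6:125095040-125095453) and 564 bp with Toca1 (chr6:125095067-125095630).

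**Figure D3:**
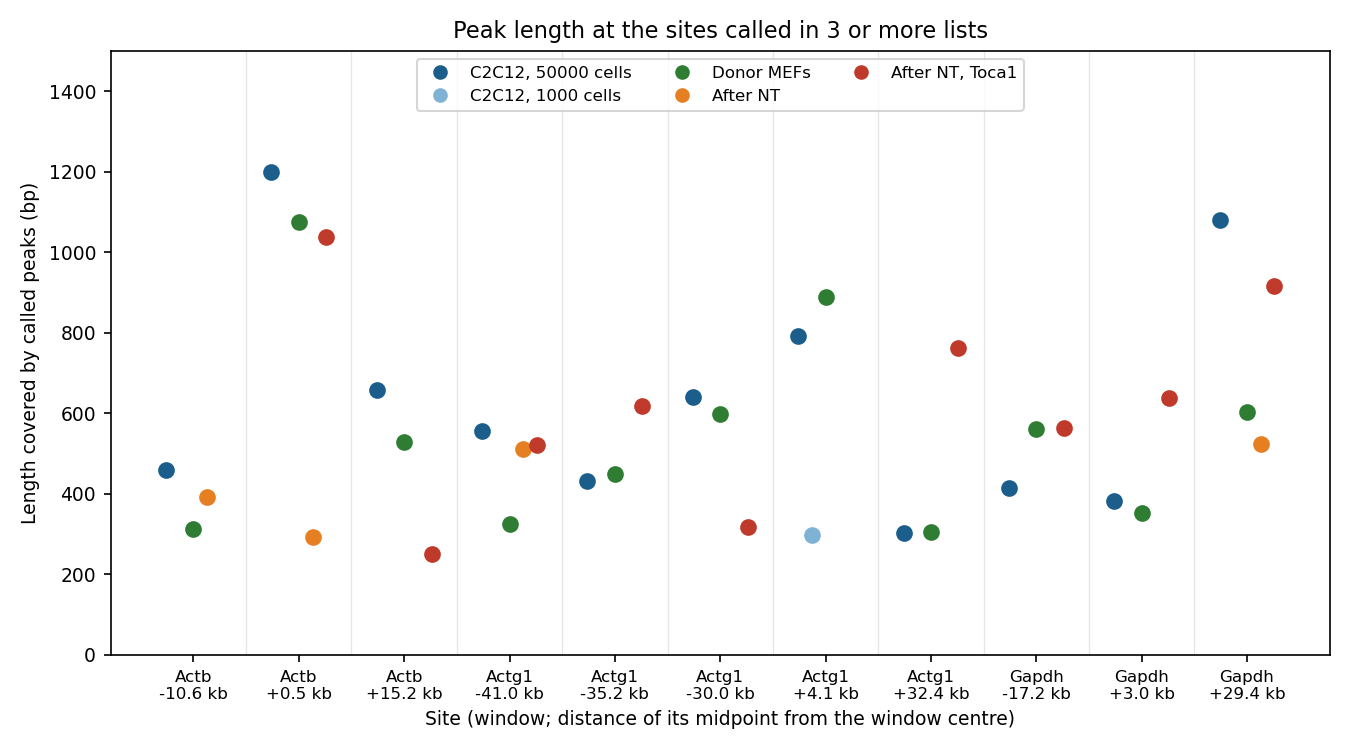
Length covered by called peaks, in bp, at the 11 sites called in 3 or more lists, with 1 point per list; sites are named by window and by the distance of their midpoint from the window centre. Of the 11 sites, 4 have a point for the NT list. At the Actb centre that point (294 bp) is below those of C2C12 cells, donor MEFs and Toca1 (1198, 1076 and 1038 bp).

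The next comparison asked which donor sites were found again after NT. Of the 18 donor peaks, 4 (22.2%, exact 95% binomial interval 6.41% to 47.6%) were overlapped by an NT peak by at least 1 bp, against 9.73% of all donor peaks. They were 2 of 6 at Actb, 1 of 7 at Actg1 and 1 of 5 at Gapdh. The interval, which covers counting error only and takes peaks of a locus as independent, includes the share of the whole list. By length, NT peaks covered 16.3% of the donor peak bases in the windows, 10.9% at Actg1, 18.5% at Actb and 20.3% at Gapdh, against 7.49% of all donor peak bases. When both peaks had to share 50% of their length, the share of donor peaks was 16.7%, against 6.13% of the whole list, and in windows lengthened by 50 kb at each end it was 14.7%.

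With Toca1, 10 of the 18 donor peaks (55.6%, interval 30.8% to 78.5%) were found again, against 19.7% of all donor peaks, a share that lay below the interval. This interval also covers counting error only and takes peaks of a locus as independent. A single Toca1 peak at the Actb centre overlapped both donor peaks there, so they are not independent. The share found again depended on the setting: it was 33.3% (interval 13.3% to 59.0%) with a reciprocal overlap of at least 50%, against 11.8% of the whole list by the same rule. In windows lengthened by 50 kb at each end it was 35.3% (interval 19.7% to 53.5%), against 19.7% of the whole list, which lay at the lower limit of the interval. The counts were alike at the loci, with 3 of 6 at Actb, 4 of 7 at Actg1 and 3 of 5 at Gapdh. Toca1 peaks covered 43.4% of the donor peak bases, against 18.7% in the whole list. Of the 18, 3 were in both NT lists, 1 in the control list only, 7 in the Toca1 list only and 7 in neither. Over all donor peaks the shares, in the same order, were 7.08%, 2.65%, 12.6% and 77.7%. The whole Toca1 list holds more peaks than the NT list, with a larger median width, and Toca1, library and depth cannot be told apart with 1 list per arm.

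Donor peaks of these loci were mostly shared with the C2C12 list from 50000 cells: 16 of 18 (88.9%, interval 65.3% to 98.6%), against 64.6% of all donor peaks. All 6 at Actb and all 5 at Gapdh were shared, and the 2 that were not lay in the Actg1 window, with widths of 245 bp (chr11:120216302-120216546) and 174 bp (chr11:120230192-120230365). Of the 16 shared peaks, 4 were found after NT (25.0%, interval 7.27% to 52.4%) and 10 with Toca1 (62.5%, interval 35.4% to 84.8%). Over all donor peaks shared with C2C12 cells these shares were 14.0% and 28.0%. The second of these lay outside its interval, which is not a test. It takes peaks of a locus as independent, although a single Toca1 peak at the Actb centre overlapped both donor peaks there. From the C2C12 side, 4 of 26 peaks were in the NT list (15.4%, interval 4.36% to 34.9%), against 7.86%, and 10 of 26 were in the Toca1 list (38.5%, interval 20.2% to 59.4%), against 16.5%.

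**Figure D4:**
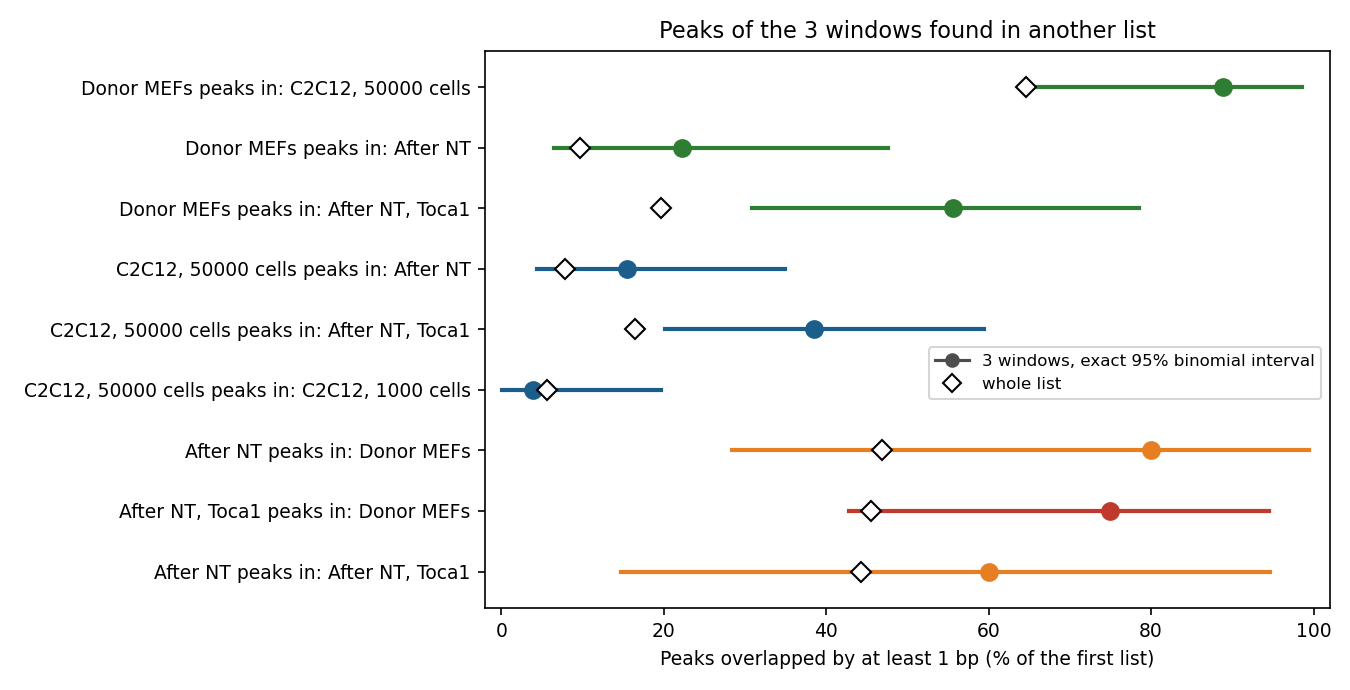
Share of the peaks of 1 list in the 3 windows that a peak of another list overlapped by at least 1 bp, in % (filled points, with exact 95% binomial intervals that cover counting error only), beside the same share over the whole list (open diamonds). For donor MEF peaks in the Toca1 list the point is at 55.6% and the diamond at 19.7%, outside the interval, whereas for donor MEF peaks after NT the diamond at 9.73% lies within it. The intervals take peaks of a locus as independent and are not a test.

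Donor peaks found after NT and the others had nearly the same median width at these loci. The 4 found had widths of 313, 326, 604 and 604 bp with a median of 465 bp, and the 14 not found had widths of 174 to 888 bp with a median of 461 bp. The likeness of these medians rests on 4 peaks, none of them near 465 bp, so no width trend at these loci can be read from it. In the whole list the medians were 548 and 386 bp. The 2 widest donor peaks of the windows, at the Actg1 centre and 23.5 kb after the Actb centre (808 bp, chr5:143690555-143691362), were in neither NT list. Of the 1758 donor peaks at least as wide as the one of 808 bp, 28.7% were overlapped by an NT peak and 51.1% by a Toca1 peak, so its absence was not rare at that width either. For Toca1 the 10 found had a median of 500.5 bp and the 8 not found one of 312 bp, against 525 and 376 bp in the whole list.

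Where 1 donor peak met 1 NT peak, the NT peak was narrower in 2 of 4 pairs, with width ratios from 0.487 at the Actb centre to 1.57 at the lower end of the Actg1 window. Over all 3635 such pairs the median ratio was 0.722 and 77.1% were narrower after NT. Midpoints moved by at most 85 bp, with a median of 71.2 bp against 86.5 bp in the whole list. Between donor MEFs and Toca1, 8 pairs had a median ratio of 1.44 (1.18 in the whole list). Of the 8, 2 were narrower with Toca1, against 37.8% of such pairs in the whole list. Between NT and Toca1, all 3 pairs were wider with Toca1. The ratio was 3.53 at the Actb centre and 1.75 in the upper part of the Gapdh window. It was 1.02 at the lower end of the Actg1 window. Over all 3358 such pairs the median ratio was 1.69 and only 15.8% were narrower with Toca1, so a wider peak was usual. Of the 5 NT peaks, 3 (60.0%, interval 14.7% to 94.7%) were overlapped by a Toca1 peak, against 44.3% of the whole NT list.

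By an overlap of at least 1 bp, 1 of 5 NT peaks and 3 of 12 Toca1 peaks lay where donor MEFs had none. Of the 5 NT peaks, 4 (80.0%, interval 28.4% to 99.5%) overlapped a donor peak, against 46.9% of all NT peaks. The fifth was 204 bp wide (chr5:143687598-143687801), lay 20.2 kb after the Actb centre and 2753 bp from the nearest donor peak, and was in no other list. With Toca1, 9 of 12 peaks (75.0%, interval 42.8% to 94.5%) overlapped a donor peak, against 45.5% of that list. The other 3 were all in the Actg1 window, with widths of 293 bp (chr11:120199268-120199560), 304 bp (chr11:120200006-120200309) and 362 bp (chr11:120250980-120251341). The first 2 lie 445 bp apart, and the 3 lie 11516, 10767 and 10746 bp from the nearest donor peak. No C2C12 or NT peak overlapped any of them. The intervals of both shares, 80.0% and 75.0%, include the share of the whole list, so no departure from it can be read. With a reciprocal overlap of at least 50%, 2 of 5 NT peaks and 6 of 12 Toca1 peaks counted as absent from donor MEFs.

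The C2C12 lists from 50000 and 1000 cells had 1 site in common. Of the 26 peaks from 50000 cells, 1 (3.85%, interval 0.0973% to 19.6%) was overlapped by a peak from 1000 cells, against 5.62% of the whole list. In the other direction it was 1 of 9 (11.1%, interval 0.281% to 48.2%), against 8.48%. That site was the one at the Actg1 centre. At Actb 0 of 10 and at Gapdh 0 of 9 peaks were found again, the central peak of 1198 bp included, although 7 other peaks were called from 1000 cells in the Actb window. Per the labels, the purification kit was skipped for DNA from 1000 cells, and the number of first PCR cycles varied with cell number. The part of this handling in the result was not tested.

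The order of genes around the members is known from the RefSeq gene table of GRCm38.p6, in which the protein-coding neighbours of Actb are Fbxl18 and Fscn1, those of Actg1 are Bahcc1 and Fscn2, and those of Gapdh are Iffo1 and Ncapd2. Fscn1 and Fscn2 encode fascins, which bundle actin filaments, and Ncapd2 encodes a condensin subunit. Which peaks away from the centres belong to these neighbours was not analysed here, because no annotation in build mm9 was used.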

How the data were processed

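ATAC-seq peak lists of 5 conditions were analysed, standing for 8 libraries. The lists deposited by the authors give no score or log value, and place every peak by its chromosome and its first and last base, called at a false discovery rate of 0.01 by the list names. The processing notes name Bowtie2 2.2.1, Picard, MACS2 2.1 and build mm9. Whether libraries were pooled before calling is not given in the sources used here. Depth per library is unknown, since the lists hold no counts. Lists were assigned to conditions by name.

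The windows and the site rule were chosen with earlier results of these data known. Named sites were those in at least 3 lists, and NT peaks absent from donor MEFs. Starts were converted to 1-based positions. An overlap of 1 bp or more made a peak shared, and overlapping peaks of all lists were joined into sites. The central interval is the window less 48 kb at each end. Shares have exact (Clopper-Pearson) 95% intervals. Genome stretches run up to the largest peak end of each chromosome. No test was run, as each condition has 1 list. Overlap counting was first tested on simulated intervals. Alternatives were 7 settings of width, joining, window length, overlap and central length. Promoters came from the RefSeq table of GRCm38.p6. Other actin and glycolysis genes were not analysed here, for want of an mm9 annotation. Python 3.11.15, numpy 2.4.6, scipy 1.17.1 and matplotlib 3.10.9 were used.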

Additional observations from a re-analysis of the deposited data

How the results depend on the processing

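Of 90 values recomputed under the alternatives, 73 stayed within the binomial interval of their share, or within 1.5 times for counts and widths, and 17 moved further. Joining peaks up to 150 bp apart (24 values) and counting peaks within 500 bp as shared (8 values) moved none past those limits. These intervals are wide, and some shares within them moved by over 1.5 times. Donor peaks found with Toca1 went from 55.6% to 33.3% (reciprocal overlap) and 35.3% (lengthened windows), and those found after NT from 22.2% to 14.7% (lengthened windows). NT peaks found with Toca1 went from 60.0% to 33.3% (shortened windows). Between the C2C12 lists, the share from 50000 cells went from 3.85% to 5.88% (shortened windows) and 7.69% (within 500 bp), and that from 1000 cells from 11.1% to 16.7% (at least 250 bp wide) and 22.2% (within 500 bp). No paired analysis was possible because each condition has 1 list for all its libraries, and for the same reason no library could be left out. Where values moved beyond what a setting imposes by its construction, the cause was not tested.

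With windows shortened by 25 kb at each end, 17 peaks were left in C2C12 cells (50000 cells), 3 after NT and 6 with Toca1. With windows lengthened by 50 kb at each end, there were 53 peaks in C2C12 cells (50000 cells), 14 in C2C12 cells (1000 cells) and 34 in donor MEFs. In these windows 2 of 7 NT peaks and 7 of 18 Toca1 peaks were absent from donor MEFs. In the whole lists, 46.9% of NT peaks and 45.5% of Toca1 peaks overlapped a donor peak. With peaks at least 250 bp wide, 100% of the donor peaks were found in C2C12 cells (50000 cells), since those that were not are 245 and 174 bp wide. At that width 0 NT peaks were absent from donor MEFs, since the one that was is 204 bp wide. Shares of the whole lists at that width are not given here. With a reciprocal overlap of at least 50%, 0 peaks were shared between the C2C12 lists in either direction. By that rule 2 of 5 NT peaks and 6 of 12 Toca1 peaks counted as absent from donor MEFs. Whole-list shares by that rule are not given for these comparisons, so the counts cannot be set against the lists at large. The covered length of all central peaks, in place of the widest, was 1076 bp for donor MEFs at Actb, and 1519 bp for C2C12 cells (50000 cells) and 649 bp for donor MEFs at Gapdh.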
